A study of Mus musculus with 24 samples.

Results

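Type I interferon response genes are the genes that cells switch on when interferon alpha or beta reaches its receptor. The 34 members described here were taken from the count table by gene symbol, as a named list of such genes, out of 24421 genes in the table. All 34 passed the filter on low counts, as did 15385 genes in all. Levels are given as CPM, the count scaled to each library's total over those genes, after TMM adjustment of that total. The tissue was whole sciatic nerve of Nf1 flox/flox PostnCre+ mice, labelled as plexiform neurofibroma, a benign nerve sheath tumour. There were 24 libraries, 6 in each of 4 groups: a combination of LY3214996 and abemaciclib, LY3214996 alone (an inhibitor of the kinases ERK1 and ERK2, here ERKi), abemaciclib alone (an inhibitor of the cell cycle kinases CDK4 and CDK6, here CDKi), and vehicle. Each was given for 1 week, and every group, vehicle included, carries the floxed Nf1 alleles and the Cre. The Cre is driven by the Postn (periostin) promoter, so that cells of the nerve in which that promoter was never active keep Nf1. Doses, ages and sexes are not given in the labels used here.

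Interferon alpha and beta bind a receptor made of Ifnar1 and Ifnar2, whose kinases Jak1 and Tyk2 phosphorylate Stat2 among other proteins. Phosphorylated Stat2 enters a complex with Irf9 that binds a short DNA element in the promoters of the response genes, the interferon-stimulated response element. Products of these genes sense foreign RNA, block viral replication or feed back on the pathway, and a low tonic level of the response is present in many tissues without infection.

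A copy of that element could be looked for in the promoter windows of 25 members in the RefSeq table for GRCm38.p6, each running from 250 bases before the gene start to 50 bases after it. The letters searched were GAAANNGAAA on both strands, so that the reverse strand reads TTTCNNTTTC, and overlapping matches were allowed. A match was present for 12 of the 25 members (48%), against 673 of 17224 genes of the table with a window (3.91%). Below, 60 bases or fewer upstream of the start are shown for 6 members whose values are described further on, 5′ to 3′ on the gene's own strand, with the matched letters in capitals. Each stretch lies before the gene start in that build.
Isg15 (chr4:156200850-156200909, minus strand): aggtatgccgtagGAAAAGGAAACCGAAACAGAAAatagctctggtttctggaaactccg
Rsad2 (chr12:26456538-26456597, minus strand): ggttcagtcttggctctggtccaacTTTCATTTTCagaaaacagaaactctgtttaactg
Stat2 (chr10:128270251-128270310, plus strand): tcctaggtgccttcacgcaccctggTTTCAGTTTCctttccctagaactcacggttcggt
Trim30a (chr7:104465195-104465254, minus strand): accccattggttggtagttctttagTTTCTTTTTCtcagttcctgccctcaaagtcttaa
Ifit1 (chr19:34640779-34640838, plus strand): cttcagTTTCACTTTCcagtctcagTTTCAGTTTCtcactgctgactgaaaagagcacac
Oas1a (chr5:120907526-120907564, minus strand): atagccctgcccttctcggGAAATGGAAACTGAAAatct
Isg15 had 3 overlapping matches in its stretch, Ifit1 and Oas1a had 2 each, and Rsad2, Stat2 and Trim30a had 1 each. Ifit3, Oas3 and Bst2 also had a match before the start, and Ddx58, Ifih1 and Eif2ak2 had one that reached past the start. These letters were not in the windows of Irf7, Irf9, Samd9l, Xaf1 or Ifi44. A match is a description of the letters, not of binding.

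The libraries held 5391543 to 42321550 counts, and a count of 3 equalled 0.0697 to 0.536 CPM depending on the library. Shares of other tissue and cell types differed between libraries of a group. Alb, the liver's albumin gene, stood above 100 CPM in ERKi 3, CDKi 1 and CDKi 3, with a highest value of 4543 CPM, and reached at most 1.61 CPM in the combination and vehicle libraries. Neuron markers averaged below 6 log2 CPM in 6 libraries, which were combination 3 and 5, CDKi 3 and 5, and vehicle 1 and 5. Schwann cell markers averaged below 9 log2 CPM in combination 2, combination 3 and ERKi 3. Nothing in the labels says that libraries of a group came from separate mice, so the p-values measure the spread between these libraries. In whole nerve, fewer cells of a type and less RNA per cell cannot be told apart.

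No member passed the test in any of 8 comparisons. These set the 3 treatments against vehicle and against one another, and asked for an interaction of both drugs and for any difference among the 4 groups. P-values came from the quasi-likelihood test of edgeR, and those called adjusted were adjusted by the method of Benjamini and Hochberg over 15385 genes, with a threshold of 0.05. Calls over all genes were also rare. They reached 0.123% of genes (19, of which 0.013% of all genes higher and 0.11% lower) in the combination against vehicle, 0.0065% (1) in the combination against CDKi, and 0% in every other comparison. An unadjusted p under 0.05 was reached by 4 members (Rsad2, Stat2, Irf7 and Samd9l) in the combination against vehicle. Of all genes 11.5% did so there, 4.93% as higher and 6.58% as lower. The first 3 were higher and Samd9l was lower. In ERKi against vehicle Rsad2 was higher and Samd9l lower, against 3.43% and 2.91% of genes (6.34% in all). In CDKi against vehicle Isg15 alone was lower, against 0.91% of genes, and no member was higher, against 2.21% (3.12% in all). With both directions pooled, the member counts in these 3 comparisons are near the shares over all genes. In no pair of groups did all libraries of one group lie above or below all libraries of the other for any member. Over all genes, the groups did not overlap for 0.279% (higher) and 0.578% (lower) in the combination against vehicle, for 0.104% and 0.136% in ERKi against vehicle, and for 0.065% and 0.026% in CDKi against vehicle. Those shares were 0.273% and 0.208% for the combination against ERKi, 0.0715% and 0.175% for the combination against CDKi, and 0.078% and 0.0845% for ERKi against CDKi.

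**Figure D1:**
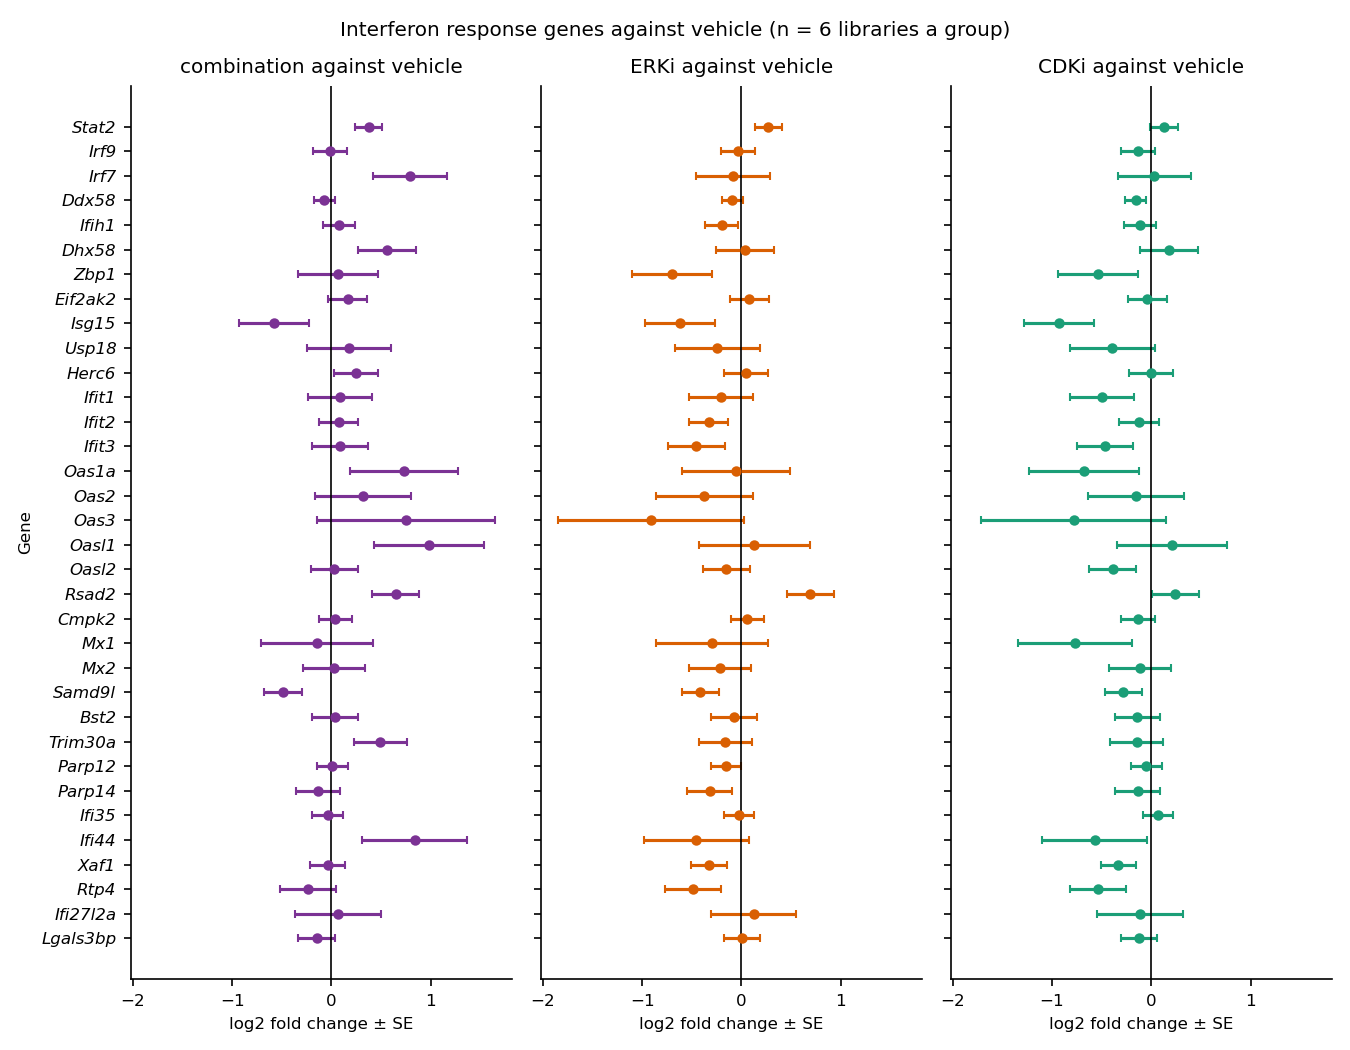
Log2 fold change against vehicle (x axis) of the 34 members (rows, grouped by role), with bars of 1 standard error, from 6 libraries a group. Rsad2 stands at 0.65 in the combination and 0.69 in ERKi, Samd9l at -0.49 and -0.42, and no member passed the adjusted test.

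The members differed more than 100-fold in level. Per kilobase of exon (union of all annotated exons, GENCODE M21), Xaf1 stood highest in vehicle nerves with 61.4 ± 13.4 CPM per kb (SD, n = 6), followed by Ifi27l2a with 31.3 ± 23.2 and Ifit3 with 27.8 ± 10.9 CPM per kb. Xaf1 encodes a binding partner of the apoptosis inhibitor XIAP. The lowest were Mx1 with 0.32 ± 0.229 and Oas3 with 0.109 ± 0.0774 CPM per kb. Oas3 had counts of 0 in combination 4 and combination 6, where a count of 3 would be 0.173 and 0.18 CPM. The 5 members that averaged under 1 log2 CPM over the 24 libraries were Oas1a, Oas2, Oas3, Oasl1 and Mx1, whose spread between libraries was among the widest.

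Stat2 and Irf9 carry the signal from the receptor to the promoters, and the difference between them in response was not tested. Stat2 ranged from 33.6 to 54.2 CPM with a median of 45.0 in combination nerves, from 38.04 to 48.0 CPM with a median of 39.3 in ERKi nerves, from 32.1 to 43.1 CPM with a median of 36.0 in CDKi nerves, and from 19.8 to 43.5 CPM with a median of 34.6 in vehicle nerves. The groups overlapped, with 5 of 6 combination libraries and 6 of 6 ERKi libraries above the vehicle mean. The log2 fold change of Stat2 was 0.38 ± 0.14 (SE) in the combination (edgeR adjusted p = 0.252) and 0.27 ± 0.14 in ERKi (edgeR adjusted p = 0.672). The lowest vehicle value came from vehicle 3, the shallowest library, and without it these became 0.26 and 0.15. Under 17 other settings, listed at the end, they ran from 0.27 to 0.39 and from 0.11 to 0.28.

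Irf9, the DNA-binding partner of Stat2, averaged 26.1 ± 7.3 CPM in combination nerves, 25.6 ± 4.45 CPM in ERKi nerves, 24.0 ± 4.48 CPM in CDKi nerves and 26.3 ± 5.59 CPM in vehicle nerves (SD, n = 6 each). Its log2 fold changes against vehicle were -0.01 ± 0.17 in the combination, -0.04 ± 0.17 in ERKi and -0.13 ± 0.17 in CDKi, each smaller than its error.

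Over the same libraries DESeq2 called 1.8% of all genes in the combination against vehicle, and no member of the list was among them.

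Irf7, the factor that amplifies the response and is itself induced by it, was high in a pair of combination libraries. It stood at 15.0 CPM in combination 3 and 9.89 CPM in combination 2, and between 3.18 and 4.99 CPM in the other 4. ERKi nerves spanned 3.33 to 4.37 CPM with a median of 3.57, CDKi nerves 2.26 to 6.27 CPM with a median of 3.42, and vehicle nerves 2.13 to 6.06 CPM with a median of 3.25. The log2 fold change of Irf7 in the combination was 0.79 ± 0.37 (edgeR adjusted p = 0.415), and 0.03 without the 3 libraries poor in Schwann cell markers, of which combination 2 and 3 are 2.

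**Figure D2:**
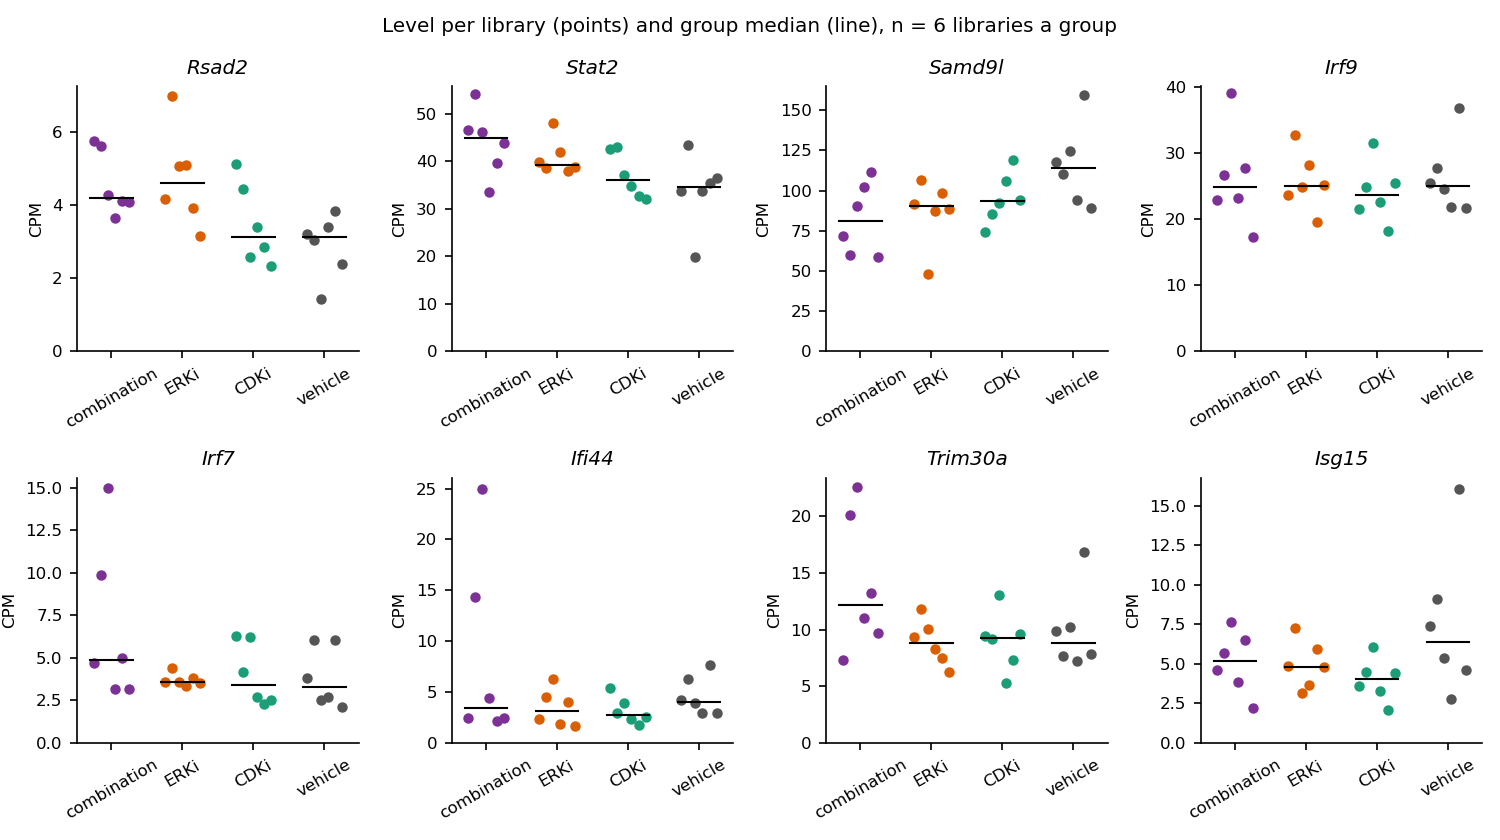
CPM (y axis, from 0) of 8 genes in each library (points), with group medians as lines, for combination, ERKi, CDKi and vehicle nerves. Irf7, Ifi44 and Trim30a are high in the same pair of combination libraries, and the groups overlap for every gene shown.

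The sensors of foreign nucleic acid differed in how steady they were. The SD between libraries of a group was 0.18 log2 for Ddx58, 0.29 for Ifih1, 0.49 for Dhx58 and 0.69 for Zbp1. Their mean levels fell in that order, with 5.78, 4.88, 1.92 and 1.58 log2 CPM. The part of the level in this spread was not tested. Ddx58, which encodes the RNA sensor RIG-I, averaged 55.6 ± 7.83 CPM in combination nerves, 54.8 ± 8.58 CPM in ERKi nerves, 52.2 ± 3.75 CPM in CDKi nerves and 58.3 ± 7.87 CPM in vehicle nerves (SD, n = 6 each). Its SD was the smallest of the 34. Ifih1, the sensor MDA5, averaged 32.7 ± 9.72 CPM in combination nerves, 27.0 ± 4.79 CPM in ERKi nerves, 28.7 ± 4.32 CPM in CDKi nerves and 31.0 ± 4.85 CPM in vehicle nerves. Dhx58, which encodes their regulator LGP2, averaged 4.97 ± 2.85 CPM in combination nerves and 3.37 ± 0.864 CPM in vehicle nerves, with a log2 fold change of 0.56 ± 0.29 (edgeR adjusted p = 0.487). Zbp1, a sensor of Z-form nucleic acid, had 10.9 CPM in combination 3 and 1.27 to 5.17 CPM in the other combination nerves, against 1.79 to 5.86 CPM in vehicle nerves. Eif2ak2, the RNA-activated kinase PKR, averaged 26.0 ± 8.87 CPM in combination nerves and 23.2 ± 4.57 CPM in vehicle nerves.

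Isg15 encodes a ubiquitin-like protein that is attached to other proteins. It ranged from 2.22 to 7.61 CPM with a median of 5.17 in combination nerves, from 3.13 to 7.27 CPM with a median of 4.8 in ERKi nerves, from 2.04 to 6.07 CPM with a median of 4.01 in CDKi nerves, and from 2.75 to 16.1 CPM with a median of 6.36 in vehicle nerves. No CDKi library and no ERKi library exceeded the vehicle mean, but that mean includes vehicle 5 at 16.1 CPM, while the other vehicle libraries stood at 9.08 CPM or below. The log2 fold change of Isg15 was -0.93 ± 0.35 in CDKi (edgeR adjusted p = 1), -0.62 ± 0.35 in ERKi (edgeR adjusted p = 0.672) and -0.58 ± 0.35 in the combination (edgeR adjusted p = 0.556). Without vehicle 5 these became -0.54, -0.25 and -0.20. Usp18, which removes Isg15 from proteins and dampens the receptor, averaged 4.11 ± 2.69 CPM in combination nerves, 3.06 ± 0.938 CPM in ERKi nerves, 2.76 ± 1.31 CPM in CDKi nerves and 3.56 ± 2.17 CPM in vehicle nerves. Herc6, the mouse ligase for Isg15, averaged 30.04 ± 7.02 CPM in combination nerves and 25.2 ± 5.67 CPM in vehicle nerves.

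Rsad2 had the smallest p of the list against vehicle, in ERKi and in the combination. It encodes viperin, an enzyme that makes a chain-terminating nucleotide. Rsad2 ranged from 3.64 to 5.75 CPM with a median of 4.2 in combination nerves, from 3.16 to 6.99 CPM with a median of 4.62 in ERKi nerves, from 2.34 to 5.13 CPM with a median of 3.13 in CDKi nerves, and from 1.43 to 3.85 CPM with a median of 3.12 in vehicle nerves. All 6 ERKi libraries and all 6 combination libraries lay above the vehicle mean, with overlap in the ranges. Its log2 fold change was 0.69 ± 0.23 in ERKi (edgeR adjusted p = 0.672), a 1.62-fold difference, and 0.65 ± 0.24 in the combination (edgeR adjusted p = 0.249), a 1.57-fold difference. Both comparisons share the 6 vehicle libraries. Under the 17 other settings, the value of Rsad2 ran from 0.31 to 0.83 in ERKi and from 0.48 to 0.84 in the combination. Rsad2 differed by -0.05 ± 0.23 between the combination and ERKi.

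Cmpk2, a nucleotide kinase gene, lies next to Rsad2 on chromosome 12, at chr12:26469204-26479837 on the plus strand, while Rsad2 occupies chr12:26442746-26456452 on the minus strand. Cmpk2 averaged 16.5 ± 3.65 CPM in combination nerves, 16.7 ± 3.3 CPM in ERKi nerves, 14.6 ± 2.88 CPM in CDKi nerves and 16.02 ± 2.97 CPM in vehicle nerves. The difference between these neighbours in their response was not tested.

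Samd9l, which encodes an inhibitor of translation and of poxvirus growth, had log2 fold changes below 0. It ranged from 58.9 to 111.8 CPM with a median of 81.2 in combination nerves, from 47.9 to 106.3 CPM with a median of 90.3 in ERKi nerves, from 73.9 to 119.2 CPM with a median of 93.3 in CDKi nerves, and from 88.9 to 159.5 CPM with a median of 113.9 in vehicle nerves. No combination or ERKi library reached the vehicle mean, although the ranges overlapped. Its log2 fold change was -0.49 ± 0.19 in the combination (edgeR adjusted p = 0.284) and -0.42 ± 0.19 in ERKi (edgeR adjusted p = 0.672). The highest vehicle value came from vehicle 5, and without it these became -0.37 and -0.30. The lowest ERKi value came from ERKi 3, a library with liver RNA, and without it the ERKi value was -0.29.

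The Ifit genes encode proteins that bind viral RNA, and Ifit1, Ifit2 and Ifit3 lie together on chromosome 19. Ifit1 averaged 29.8 ± 11.3 CPM in combination nerves, 24.3 ± 7.45 CPM in ERKi nerves, 19.9 ± 5.8 CPM in CDKi nerves and 28.0 ± 16.1 CPM in vehicle nerves. Its highest library was vehicle 5 with 56.7 CPM and its lowest was CDKi 5 with 8.48 CPM. Ifit3 averaged 51.6 ± 22.8 CPM in combination nerves, 35.5 ± 12.5 CPM in ERKi nerves, 35.2 ± 7.45 CPM in CDKi nerves and 48.6 ± 19.1 CPM in vehicle nerves. Ifit2, at 74.2 to 98.1 CPM in the group means, had its highest library in combination 5 at 164.7 CPM. None of the 3 passed the test in any comparison.

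Some of the Oas proteins make oligoadenylates that activate RNase L. The Oas1a, Oas2, Oas3, Oasl1 and Oasl2 genes all lie on chromosome 5. Oas1a stood at 4.38 CPM in combination 3 and 3.8 CPM in combination 2, and between 0.479 and 1.27 CPM in the other combination nerves, against 0.714 to 1.77 CPM in vehicle nerves. Oasl1 showed the same pair on top, with 4.73 and 3.88 CPM, while the other combination nerves held 0.781 to 2.14 CPM and vehicle nerves 0.444 to 2.14 CPM. Oasl2, the most abundant of them, averaged 29.8 ± 10.5 CPM in combination nerves, 26.3 ± 4.57 CPM in ERKi nerves, 22.3 ± 6.18 CPM in CDKi nerves and 29.1 ± 9.61 CPM in vehicle nerves. The Oas genes are close paralogs, and how reads matching several of them were counted is not stated. Mx1 and Mx2, which encode antiviral GTPases, averaged 1.1 ± 0.648 and 4.62 ± 1.32 CPM in combination nerves, against 1.21 ± 0.867 and 4.52 ± 2.22 CPM in vehicle nerves.

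Ifi44 and Trim30a, a gene for a tripartite motif protein, were high in the same pair of combination libraries as Irf7. Ifi44 stood at 24.9 CPM in combination 3 and 14.4 CPM in combination 2, and between 2.15 and 4.39 CPM in the other 4 combination nerves. ERKi nerves held 1.68 to 6.26 CPM, CDKi nerves 1.77 to 5.42 CPM and vehicle nerves 2.96 to 7.69 CPM. Trim30a stood at 22.6 and 20.1 CPM in those combination libraries and at 7.34 to 13.3 CPM in the other 4, against 6.25 to 11.8 CPM in ERKi nerves, 5.25 to 13.1 CPM in CDKi nerves and 7.2 to 16.9 CPM in vehicle nerves. The log2 fold change against vehicle was 0.84 ± 0.53 for Ifi44 (edgeR adjusted p = 0.574) and 0.49 ± 0.27 for Trim30a (edgeR adjusted p = 0.497). Without the 3 libraries poor in Schwann cell markers, Ifi44 turned to -0.71 and Trim30a became 0.06.

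Rtp4, a chaperone of G protein-coupled receptors, and Xaf1 came next to Isg15 by p in CDKi against vehicle. Rtp4 averaged 7.39 ± 3 CPM in combination nerves, 6.2 ± 1.97 CPM in ERKi nerves, 6.0 ± 1.38 CPM in CDKi nerves and 8.66 ± 3.85 CPM in vehicle nerves, with log2 fold changes of -0.24 ± 0.28, -0.49 ± 0.28 and -0.53 ± 0.28 against vehicle. Xaf1 averaged 280.3 ± 86.3 CPM in combination nerves, 229.4 ± 43.2 CPM in ERKi nerves, 229.0 ± 32.3 CPM in CDKi nerves and 288.1 ± 63.0 CPM in vehicle nerves. All 6 ERKi and all 6 CDKi libraries of Xaf1 lay below the vehicle mean, with overlap, at -0.33 ± 0.18 in each. Vehicle 5 was again the highest vehicle library for both genes, at 14.9 CPM for Rtp4 and 403.6 CPM for Xaf1. Without vehicle 5 the log2 fold changes of Rtp4 were -0.01 in the combination, -0.27 in ERKi and -0.29 in CDKi. Those of Xaf1 were 0.09 in the combination, -0.21 in ERKi and -0.20 in CDKi.

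No call was made among the remaining members. Parp14, which encodes an ADP-ribosyltransferase, averaged 212.6 ± 67.1 CPM in combination nerves and 233.5 ± 64.1 CPM in vehicle nerves. Bst2 (tetherin, which holds budding virus at the cell surface) averaged 6.6 ± 2.21 CPM in combination nerves and 6.4 ± 1.8 CPM in vehicle nerves. Log2 fold changes of Parp12, Parp14, Bst2, Ifi35, Ifi27l2a and Lgals3bp in the combination ran from -0.15 to 0.06.

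Across the list, the single drugs and the combination leaned in different directions. Against vehicle, 24 members were higher and 10 lower in the combination, with a median log2 fold change of 0.07 (all genes 0.04, with 56.4% of them above 0 and 43.6% below). In ERKi 9 were higher and 25 lower, with a median of -0.16 (all genes 0.00, and 50% below 0), and in CDKi 6 were higher and 28 lower, with a median of -0.14 (all genes -0.01, and 51.8% below 0). All 3 comparisons share the vehicle libraries, and these shifts rested on few libraries. Without vehicle 5 the ERKi median was 0.02 and the CDKi median -0.04, with 15 members higher in CDKi, and without combination 3 the combination median was -0.07.

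The combination stood above either single drug for most members. Against ERKi, 28 members were higher and 6 lower, with a median of 0.22, while 48.4% of all genes were above 0. Against CDKi, 31 were higher and 3 lower, with a median of 0.29, while 56.2% of all genes were above 0 and 43.8% below. At an unadjusted p under 0.05 the members were Ifi44 (1.29 ± 0.53), Irf7 (0.88 ± 0.37) and Trim30a (0.66 ± 0.27) against ERKi, where 9.34% of genes did so and 5.73% were higher, and Ifi44 (1.41 ± 0.54), Oas1a (1.41 ± 0.55) and Trim30a (0.64 ± 0.27) against CDKi, where 7.07% did, 2.36% as higher and 4.71% as lower. The smallest edgeR adjusted p was 0.478 against ERKi and 0.528 against CDKi. Without the 3 libraries poor in Schwann cell markers, which removes combination 2 and 3, the medians were -0.08 against ERKi and -0.01 against CDKi. ERKi and CDKi differed from each other by a median of 0.05, with 20 members higher and 14 lower and none at an unadjusted p under 0.05 (4.54% of genes).

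The interaction, the combination minus both single drugs plus vehicle, asks whether the drugs together differ from the sum of their separate effects. It was above 0 for 30 members and below 0 for 4, with a median of 0.46, while 49.8% of all genes were above 0. Ifi44 (1.86 ± 0.75), Zbp1 (1.30 ± 0.57), Ifit3 (1.00 ± 0.40), Trim30a (0.80 ± 0.38) and Xaf1 (0.62 ± 0.25) had an unadjusted p under 0.05 as higher, as did 1.61% of genes, and the edgeR adjusted p was 0.988 for each. The median was 0.04 without the 6 libraries poor in neuron markers and 0.09 without the 3 poor in Schwann cell markers. In the test over the 4 groups, Rsad2 (unadjusted p = 0.0203) and Ifi44 (unadjusted p = 0.0443) were the 2 members under 0.05, against 8.14% of genes, and the smallest edgeR adjusted p was 0.497.

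Libraries of a group differed widely in the level of the members, with a pooled SD of 0.36 log2 CPM. The mean log2 CPM over the 34 members was 3.64 ± 0.52 in combination nerves, 3.42 ± 0.18 in ERKi nerves, 3.35 ± 0.29 in CDKi nerves and 3.55 ± 0.37 in vehicle nerves (SD, n = 6 each). Within the combination it ran from 3.06 in combination 6 to 4.45 in combination 3, a span of more than 1 log2 unit, and within vehicle from 3.19 in vehicle 4 to 4.15 in vehicle 5. The median spread of a member between libraries of a group was 0.45 on the log2 scale, against 0.33 over all genes. It was 0.53 in combination nerves (all genes 0.33), 0.38 in ERKi nerves (0.31), 0.36 in CDKi nerves (0.29) and 0.44 in vehicle nerves (0.30). The widest single spread was that of Oas3, 1.39.

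**Figure D3:**
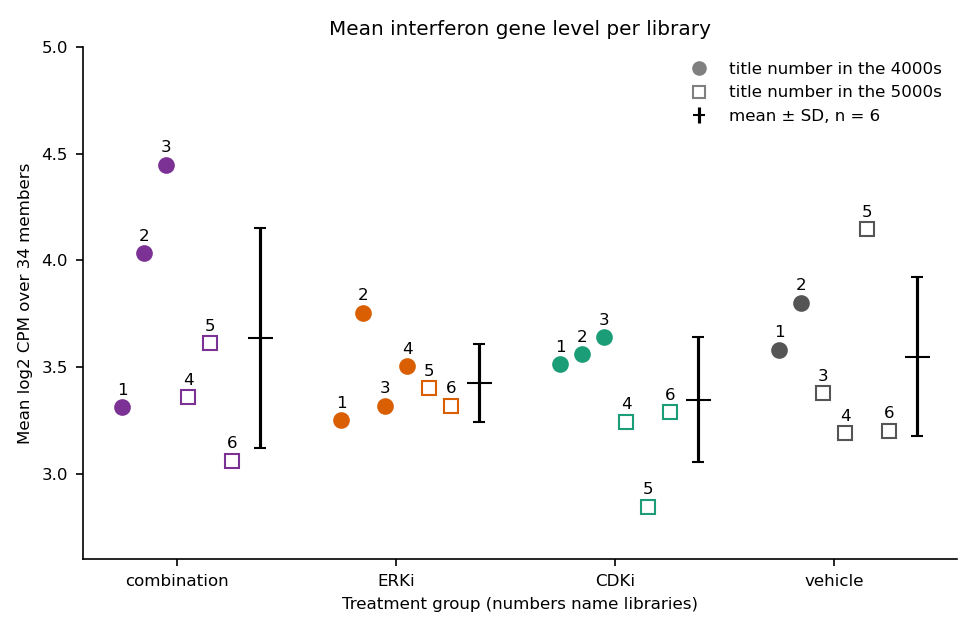
Mean log2 CPM over the 34 members (y axis) in each library, numbered within its group, with the mean ± SD beside (n = 6). Combination 3 (4.45), vehicle 5 (4.15) and combination 2 (4.03) stand highest and CDKi 5 (2.85) lowest, and the group ranges overlap.

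Members were high together in single libraries. Combination 3 held the highest value of its group for 25 of the 34 members, while it did so for 24.9% of all genes, and the highest of all 24 libraries for 17 members (12.3% of all genes). Vehicle 5 was the highest vehicle library for 23 members (13% of all genes), and ERKi 2 was the highest ERKi library for 19 (15.7%). At the other end, CDKi 5 was the lowest CDKi library for 18 members (19.4%) and combination 6 the lowest of its group for 15 (14.4%). ERKi 3 was lowest for 14 members, but it was also lowest for 35.3% of all genes.

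The high libraries did not share one pattern. Combination 3 exceeded vehicle 5 in Ifi44 (24.9 CPM in combination 3 and 7.69 CPM in vehicle 5), Irf7 (15.0 and 6.03 CPM), Oas3 (4.64 and 1.01 CPM) and Oasl1 (4.73 and 1.07 CPM). For Isg15 the order was the other way, with 7.61 CPM in combination 3 and 16.1 CPM in vehicle 5, and for Samd9l it was 90.6 and 159.5 CPM. Ifi27l2a was high in both, at 31.0 and 33.3 CPM, and also in ERKi 2 at 30.3 CPM. These genes were chosen after their values were seen.

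**Figure D4:**
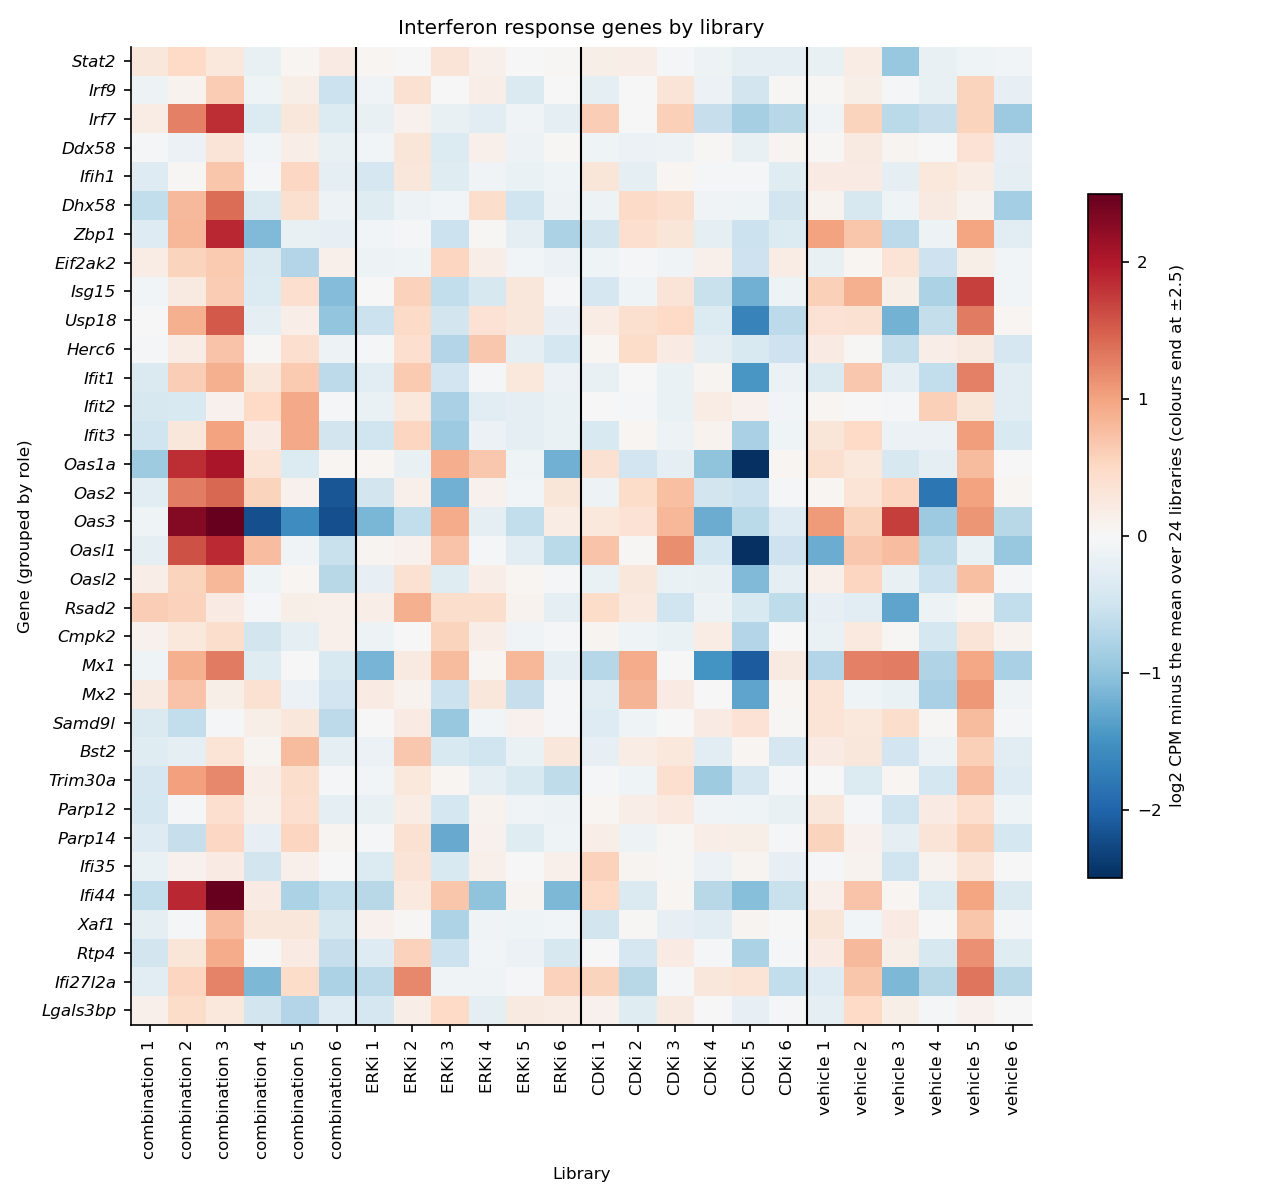
Log2 CPM of each member (rows) in each of 24 libraries (columns, grouped as combination, ERKi, CDKi and vehicle), minus the member's mean over all libraries. Combination 2, combination 3 and vehicle 5 are red for most rows, and CDKi 5, lowest of its group for 18 members, is blue for many.

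Cell marker levels also differed between libraries, and did not follow the member level in all of them. Macrophage markers (16 genes) averaged 5.24 log2 CPM in combination 3 and 4.94 in combination 2, and ran from 3.54 to 4.42 in the other combination libraries, against 4.46 to 4.97 in vehicle nerves, where vehicle 5 had 4.92. Their summed level spanned 410.9 to 1123 CPM in combination nerves and 704.5 to 970.9 CPM in vehicle nerves. The macrophage gene Adgre1 reached 62.3 CPM in combination 3, against 28.4 CPM at most in vehicle. Most of the list went the other way between the groups. In the combination 3 of the 16 were higher than in vehicle and 13 lower, with a median log2 fold change of -0.18. In ERKi and in CDKi 2 were higher and 14 lower. CDKi 3 had the highest macrophage level of all, 5.39, with an interferon member level of 3.64. Schwann cell markers (11 genes) were 8.93 in combination 3 and 8.31 in combination 2, and 9.47 to 9.77 in the other combination libraries. Endothelial markers (11 genes) stood at 5.77 in combination 3, the highest of all libraries. All 11 were higher in the combination than in vehicle at an unadjusted p under 0.05 and none passed the edgeR test. Neuron markers were 4.22 in vehicle 5 and 1.97 in CDKi 5, both among the 6 libraries poor in neuron markers. Thus the highest vehicle library and the lowest CDKi library for the members are both in that set. Siglech, a marker of plasmacytoid dendritic cells and microglia, spanned 7.51 to 27.9 CPM in combination nerves and 15.5 to 31.6 CPM in vehicle nerves. Skeletal muscle markers (11 tested) were higher than in vehicle for all 11 in each treatment, and 13 of 13 adipocyte markers were higher in the combination and in CDKi and 12 in ERKi, with no call among them. The part of these cell types in the members' levels was not tested beyond the fits with a marker level as a covariate. With the macrophage level as a covariate, Trim30a in the combination passed at an edgeR adjusted p of 0.0476, where 0.455% of genes were called. It was the only call on a member under any alternative tried.

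**Figure D5:**
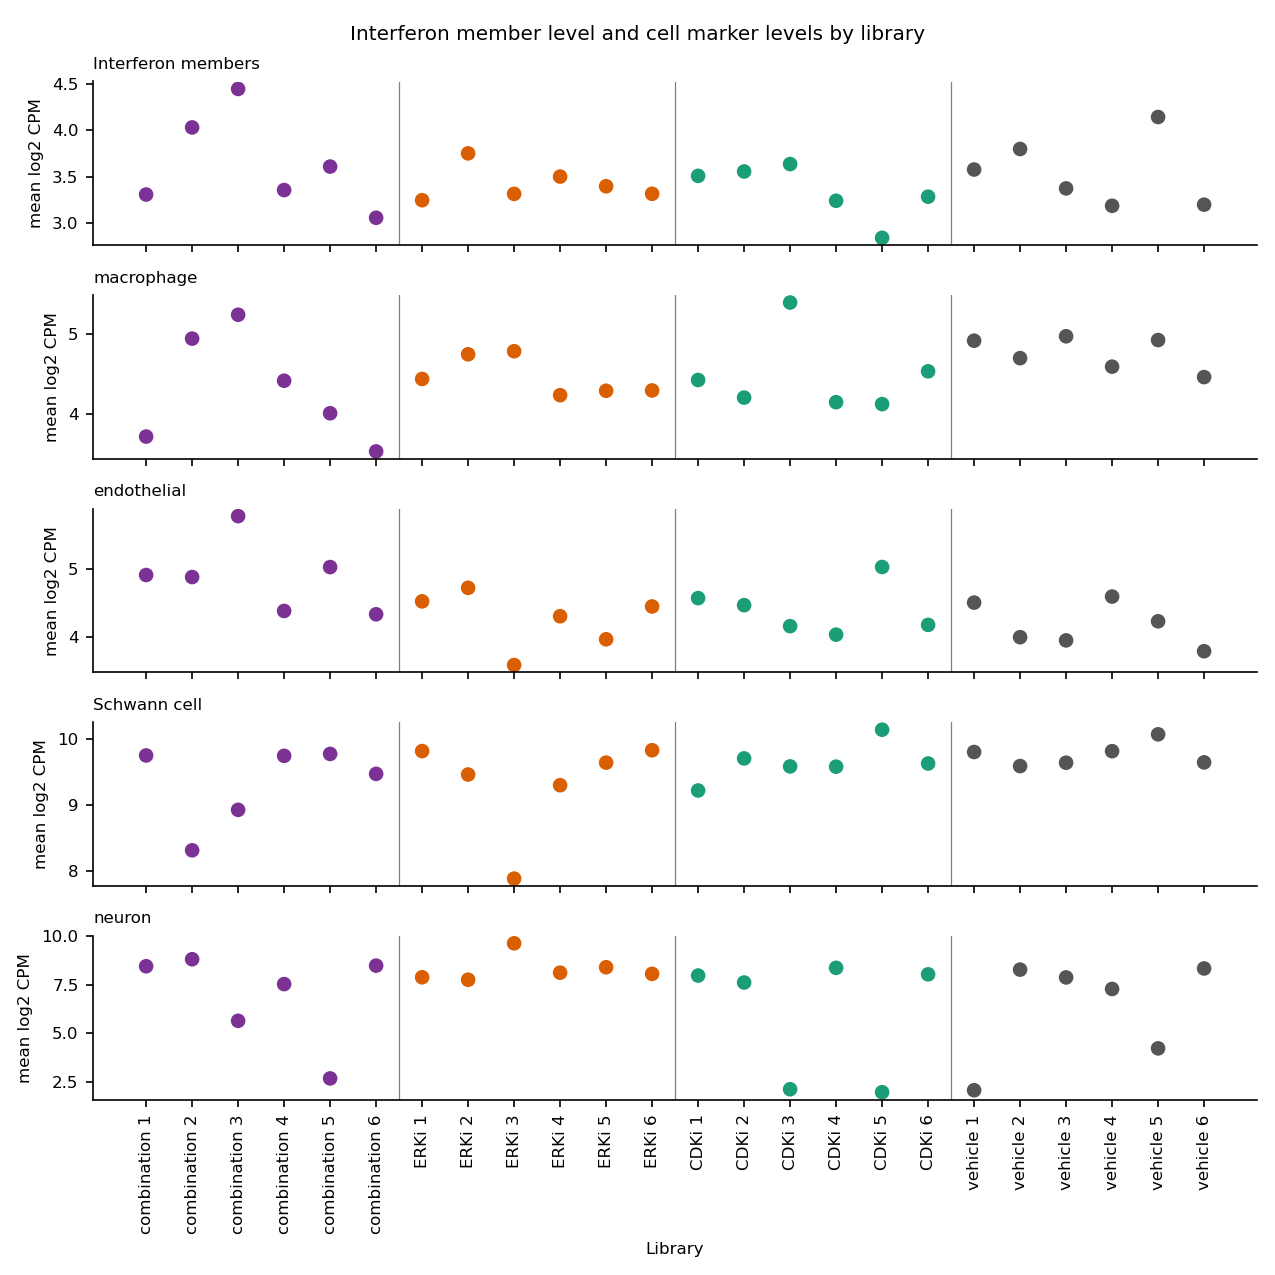
Mean log2 CPM (y axes) of the 34 members and of 4 cell marker lists in each library (x axis). Combination 3 is highest for the members (4.45) and the endothelial list (5.77), and CDKi 3 is highest for the macrophage list (5.39).

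The numeric titles of the libraries fall into a 4000s and a 5000s series of 12 each. The labels do not say what they mark. Both occur in every group, with 3 of 6 libraries in the 4000s in the combination, 4 in ERKi, 3 in CDKi and 2 in vehicle. With the series added to the model, 31 of 34 members were higher in the 4000s series, by a median of 0.27, while 55.1% of all genes were above 0. At an unadjusted p under 0.05 there were 11 members, against 15.7% of all genes, and no member passed the adjusted test. Irf7 came nearest, with 0.80 and an edgeR adjusted p of 0.0982. Rsad2 (0.42) and Stat2 (0.27) were also among the 11, and ERKi holds more libraries of the 4000s than vehicle does. In CDKi nerves the 3 libraries of the 4000s had member levels of 3.51, 3.56 and 3.64, and the 3 of the 5000s had 3.24, 2.85 and 3.29. In every other group the series overlapped. Vehicle 5 of the 5000s stood at 4.15, and combination 1 and ERKi 1 of the 4000s at 3.31 and 3.25. All libraries with liver RNA and all those poor in Schwann cell markers fall in the 4000s. Their part in the series difference was not tested. Against vehicle the members' median in the combination was 0.20 within the 4000s series and -0.14 within the 5000s series. In ERKi it was -0.22 in both.

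Interferon itself was barely counted. Of 20 interferon ligand genes none passed the filter on low counts. The 13 alpha genes held 50 counts together over all 24 libraries, Ifnb1 held 2 and Ifng, the type II interferon, held 11. At this depth a difference in ligand RNA between groups was not detectable.

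The rest of the pathway comprised 119 tested genes in 6 further lists, and none passed edgeR's adjusted test. In the combination 14 had an unadjusted p under 0.05, with 7 higher and 7 lower, and 79 of the 119 lay above 0. Over all genes, 11.5% had such a p there and 56.4% lay above 0. There were 9 such genes in ERKi, with 1 higher and 8 lower (6.34% of all genes), and 3 in CDKi, all lower (3.12% of all genes). With both directions pooled, the counts at that p are near those shares. By direction, 4.93% of all genes were higher and 6.58% lower in the combination at that p. In ERKi 3.43% were higher and 2.91% lower, and in CDKi 2.21% and 0.91%. The lower pathway genes exceeded those shares in ERKi and CDKi, which was not tested. In ERKi 84 of the 119 lay below 0, and in CDKi 65, where 50% and 51.8% of all genes did. Among the receptors, Ifnar1, Ifngr2 and Il10rb were lower at an unadjusted p under 0.05 in the combination, and Ifnar1, Ifnar2, Ifngr1 and Il10rb in ERKi. Ifnar1, a chain of the type I receptor, averaged 89.8 ± 9.36 CPM in combination nerves, 94.0 ± 12.6 CPM in ERKi nerves, 99.9 ± 12.2 CPM in CDKi nerves and 115.7 ± 12.5 CPM in vehicle nerves. Its log2 fold change was -0.37 ± 0.11 in the combination (edgeR adjusted p = 0.142) and -0.30 ± 0.10 in ERKi (edgeR adjusted p = 0.672). For Ifngr2 and Il10rb, all combination libraries lay below all vehicle libraries, as was so for 0.578% of all genes. They were found by looking through the 119 genes. Il10rb is a chain of the receptors for interleukin 10 and lambda interferon.

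Among the sensors and adaptors outside the members (15 genes), 2 had an unadjusted p under 0.05 in the combination, Tlr3 and Unc93b1. Both were lower, as were 6.58% of all genes at that p. Tlr3, an endosomal receptor for double-stranded RNA, averaged 26.8 ± 5.32 CPM in combination nerves, 29.7 ± 6.02 CPM in ERKi nerves, 33.99 ± 7.49 CPM in CDKi nerves and 41.5 ± 10.3 CPM in vehicle nerves. Its log2 fold change in the combination was -0.63 ± 0.18 (edgeR adjusted p = 0.138, DESeq2 adjusted p = 0.0441).

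Of the negative regulators (15 genes), 13 lay above 0 and 2 below in the combination, where 56.4% of all genes lay above 0. Their median log2 fold change there was 0.12. At an unadjusted p under 0.05, 1 was higher (Ptpn11) and 1 lower (Ptpn2), against 4.93% and 6.58% of all genes. In ERKi 5 lay above 0 and 10 below, and in CDKi 10 above and 5 below. Ptpn2, a phosphatase that acts on the JAK kinases, averaged 21.8 ± 2.02 CPM in combination nerves, 25.8 ± 3.61 CPM in ERKi nerves, 23.3 ± 2.53 CPM in CDKi nerves and 29.0 ± 2.52 CPM in vehicle nerves. Its log2 fold change was -0.41 ± 0.10 in the combination (edgeR adjusted p = 0.0853, DESeq2 adjusted p = 0.0119) and -0.32 ± 0.10 in CDKi (edgeR adjusted p = 1). No combination library of Ptpn2 reached the vehicle mean. Among 9 interferon regulatory factors beside Irf7 and Irf9, the smallest p in the combination was that of Irf1, 32.4 ± 5.53 CPM in combination nerves and 27.5 ± 4.75 CPM in vehicle nerves.

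Targets of interferon gamma (19 tested genes) had median log2 fold changes of 0.13 in the combination, -0.25 in ERKi and -0.21 in CDKi. Their smallest p belonged to Gbp2, a guanylate-binding protein, in ERKi (47.6 ± 17 CPM in ERKi nerves and 69.1 ± 21.2 CPM in vehicle nerves), to Iigp1 in CDKi (14.8 ± 10.2 CPM in CDKi nerves and 7.64 ± 2.78 CPM in vehicle nerves), and to Tgtp1 in the combination (2.03 ± 0.969 CPM in combination nerves and 1.23 ± 0.497 CPM in vehicle nerves). Iigp1 was highest in the 3 libraries with liver RNA, at 28.9 CPM in CDKi 3, 28.5 CPM in ERKi 3 and 25.9 CPM in CDKi 1, and all other libraries lay below these, down to 5.14 CPM among the other CDKi nerves. Its log2 fold change in CDKi was 0.96 ± 0.50, and 0.17 without those 3 libraries. Of 50 other interferon-stimulated genes tested, 40 lay above 0 in the combination, where 56.4% of all genes did, and 6 of them had an unadjusted p under 0.05, as did 4.93% of all genes as higher. The smallest p there was that of Ly6a, the surface protein Sca-1, which is also abundant on endothelial cells. Ly6a averaged 26.6 ± 12.5 CPM in combination nerves, 12.7 ± 4.57 CPM in ERKi nerves, 16.1 ± 4.85 CPM in CDKi nerves and 12.9 ± 3.61 CPM in vehicle nerves, a log2 fold change of 1.05 ± 0.29 in the combination (edgeR adjusted p = 0.132, DESeq2 adjusted p = 0.0263). Endothelial markers were also higher there, by a median of 0.80 log2. Shisa5 had the smallest p of that list in ERKi and in CDKi, at 35.01 ± 4.79 CPM in ERKi nerves, 36.9 ± 4.13 CPM in CDKi nerves and 43.2 ± 3.83 CPM in vehicle nerves.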

How the data were processed

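RNA of 24 sciatic nerve samples was sequenced after ribosomal RNA removal, per the labels' protocols; the molecule label reads polyA RNA. The authors deposited raw counts per gene, not scaled. The tools FastQC, STAR and DESeq2 and the build mm10 are named, per the submitters' processing notes. Counting program, annotation and strand are not stated in those sources.

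Groups came from the treatment label, and library numbers only name samples. Counts were tested in R 4.3.3 with edgeR 4.0.16: filterByExpr (minimum count 10, minimum total 15), TMM scaling, and a robust quasi-likelihood fit of all 24 libraries with a mean per group (20 residual degrees of freedom). P-values were two-sided and Benjamini-Hochberg adjusted over 15385 genes. CPM are TMM-scaled, and log2 CPM used a prior count of 2. Alternatives used DESeq2 1.42.0 and limma 3.58.1. The fit was tested on simulated counts.

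Members and lists were chosen with earlier results of these data known, so no list has a p-value. Given in full are the 3 members with the smallest p per contrast with vehicle and over the groups (mean log2 CPM of at least 1), plus Isg15, Irf7, Stat2 and Irf9, and of each other pathway list the gene with the smallest p per contrast with vehicle. Some genes that this rule names are not reported here. Depth was 5391543 to 42321550 counts, and floors of 3 counts cover counting error only. No library repeated another of its group within sampling noise (lowest chi-square per degree of freedom 18.9). Exon lengths came from GENCODE M21 and promoters from RefSeq.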

Additional observations from a re-analysis of the deposited data

Results flagged for a closer look

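In 7 of 140 checks of 6 libraries each, 1 library lay apart from the other 5 by more than Dixon's 95% limit. Chance gives about 1 in 20, so this number of flags is near what chance alone gives. CDKi 5 was low for Ifit1 (3.10 log2 CPM, others 4.38 to 4.63) and for Oasl2 (3.58, others 4.46 to 4.97). ERKi 3, the library with the lowest Schwann cell marker level (7.88 log2 CPM) and with liver RNA, was low for Xaf1 (7.19, others 7.85 to 8.07) and for Samd9l (5.59, others 6.45 to 6.73). Vehicle 3, the shallowest library, was low for Stat2 (4.32, others 5.08 to 5.45). Vehicle 4 was low for Oas2 (-1.17, others 0.70 to 1.65), a gene with few counts. CDKi 1 was high for Ifi35 (4.75, others 3.98 to 4.25). The part of depth, liver RNA or cell makeup in these values was not tested.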

How the results depend on the processing

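The count of members that passed stayed at 0 in all 8 comparisons under 17 other settings (16 for the interaction and for any difference among the groups) and 24 fits without 1 library, except that 1 member (Trim30a, edgeR adjusted p = 0.0476) passed in the combination against vehicle with a macrophage covariate. The settings were other scalings and filters, DESeq2, limma-voom, only the groups compared, covariates for neuron, macrophage and, added after seeing the data, T and NK cell markers, a number series term, and fits without the liver-positive or the extreme-depth libraries; fits without the 6 neuron-poor or 3 Schwann-poor libraries or within a number series were also added after seeing the data. The interaction median of 0.46 became 0.0449 without the neuron-poor and 0.0941 without the Schwann-poor libraries. DESeq2 called 282 genes in the combination against vehicle, where edgeR called 19 (0 to 108 over its other fits), and Ptpn2, Tlr3 and Ly6a were among them. The combination median turned to -0.15 with limma-voom, -0.14 without the Schwann-poor and -0.01 without the neuron-poor libraries, and the ERKi median to 0.01 without the neuron-poor and 0.002 with the macrophage covariate. The CDKi median was -0.05 and -0.04 in those fits.

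Some differences that were not called changed sign, Ifi44 in each treatment among them (0.84 in the combination, -0.45 in ERKi and -0.57 in CDKi as reported). In ERKi, Ifi44 became 0.000779, Trim30a 0.093, Irf7 0.228 and Irf9 0.108 with the macrophage covariate; Irf7 0.00613 and Irf9 0.0545 with the neuron covariate; Trim30a 0.113, Irf7 0.0955 and Irf9 0.0918 without the neuron-poor libraries; Trim30a 0.168 and Irf9 0.0334 within the 4000s and Irf7 0.0901 within the 5000s. In CDKi, Ifi44 became 0.00596 and Trim30a 0.0891 with the macrophage covariate, Trim30a 0.0463 without the neuron-poor libraries and 0.293 within the 4000s, and Irf7 -0.18 with limma-voom, -0.167 with the series term, -0.434 without the liver-positive libraries and -0.433 within the 5000s. In the combination, the macrophage covariate gave 0.0314 for Rtp4, 0.0682 for Xaf1 and 0.182 for Irf9. Irf9 was 0.00865 with the neuron and 0.0311 with the T and NK covariate, and 0.154 within the 4000s, where Xaf1 was 0.12. Ifi44 was -0.326 with limma-voom, -0.713 without the Schwann-poor libraries and -0.559 within the 5000s. The cause was not tested. Over the 24 fits without 1 library, values in ERKi ranged from -0.276 to 0.0545 for Trim30a, from -0.223 to 0.0856 for Irf7 and from -0.131 to 0.0783 for Irf9. In CDKi the ranges were -0.279 to 0.0925 for Trim30a, -0.141 to 0.224 for Irf7 and -0.218 to 0.00409 for Irf9. In the combination they were -0.204 to 0.0856 for Xaf1 and -0.165 to 0.111 for Irf9.

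No paired analysis was possible because the labels give no replicate numbers shared between groups. Genes near the floor, such as Oas3 and Mx1, are limited by depth.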
